A study of Homo sapiens with 12 samples.

Results

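The genes described here encode NF-kB subunits and the targets through which NF-kB feeds back on itself. They were taken by name: 4 subunit genes (NFKB1, NFKB2, RELB and REL), 3 feedback inhibitors (NFKBIA, NFKBIE and TNFAIP3) and 3 other targets (TNFAIP2, BIRC3 and ICAM1). All 10 were found by symbol, out of 29890 genes listed for the line 5637 and 58735 listed for the line 786-O. RNA-seq was made from 12 libraries. The groups were 5637 bladder cancer cells with sh control (3 libraries), 5637 cells with shCBX7 (3), 786-O renal cancer cells with sh control (3) and 786-O cells with shCBX7 (3). CBX7 is a chromobox protein of PRC1, a Polycomb complex that holds its target genes silent. By the sample titles, shCBX7 is a short hairpin RNA against its message, while the column headers of the deposited values write si. The labels name no other treatment in any group. Which vector, if any, carried a hairpin, and whether cells were clones or pools, is not given in the sources used here.

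NF-kB proteins are dimers built from 5 related subunits. NFKB1 and NFKB2 encode precursors that are cut to the DNA-binding subunits p50 and p52, while RELA, RELB and REL carry the domains that activate transcription. In resting cells, inhibitors of the IkB family such as NFKBIA hold the dimers in the cytoplasm. Signals from cytokine and Toll-like receptors make the IKK kinases mark these inhibitors for destruction, and the freed dimers switch on, among many genes, their own inhibitors and TNFAIP3, which shuts the signal off again. This loop makes NFKBIA and TNFAIP3 common readouts of the pathway in epithelial and tumour cells.

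CBX7 was lower in every shCBX7 library than in every control library of its line, with 83.3% of the control mean left in 5637 and 61.0% in 786-O. The fall in 5637 (log2 change -0.18, limma adjusted p = 0.0188) lost its call without shCBX7 library 2 (limma adjusted p = 0.0608) or without control library 3 (limma adjusted p = 0.0586). Of the control titles of 5637, 2 name a different number as the cells although the cell line label is 5637, and control libraries are numbered here as in the table. Each library of 5637 held 15459979 to 25456199 reads in genes whose values could be turned back into whole reads, and each of 786-O held 16384151 to 18868874. The labels do not state that replicates were separate cultures, so a p-value here reflects the spread among libraries alone, which could be technical. Summed urothelial markers reached 1948 to 1966 FPKM in control 5637 and 165 to 204 FPKM in control 786-O, where KRT5 was listed at 0, while the uroplakins UPK2 and UPK3A were under 0.5 FPKM in both lines. The renal markers summed to 401 to 409 FPKM in control 786-O and 10.4 to 11.1 FPKM in control 5637. KRT19 alone gave 162 to 201 FPKM of the urothelial sum in control 786-O. VIM gave 346 to 356 FPKM of the renal sum there, while NDUFA4L2, LRP2 and CUBN were under 0.5 FPKM. Of 10 leukocyte markers, those listed at 0 included CD3E and TYROBP in 5637, and PTPRC and CD3E in 786-O. Their sum in 786-O was 19.0 to 23.1 FPKM in control and 12.2 to 13.6 FPKM in shCBX7 libraries, and in 5637 56.7 to 58.8 FPKM and 53.8 to 54.6 FPKM. LAPTM5 carried most of these sums and fell in both lines (43.5 to 37.5 FPKM in 5637, 17.5 to 8.07 FPKM in 786-O), while CORO1A rose in 5637 (12.3 to 14.9 FPKM) and CSF1R in 786-O (1.38 to 3.16 FPKM). All 7 endothelial markers were under 0.5 FPKM in 786-O, and CDH5 was listed at 0. Their sum went from 0.539 to 0.723 FPKM in control up to 0.766 to 1.04 FPKM in shCBX7 libraries there, and from 1.89 to 2.37 FPKM down to 1.53 to 1.65 FPKM in 5637. In shCBX7 libraries the urothelial markers summed to 2123 to 2152 FPKM in 5637 and 198 to 226 FPKM in 786-O, and the renal markers to 359 to 391.9 FPKM in 786-O and 9.06 to 10.01 FPKM in 5637. The fibroblast markers summed to 14.7 to 15.3 FPKM in control and 12.6 to 13.4 FPKM in shCBX7 libraries of 5637, and to 2.23 to 2.68 FPKM and 2.94 to 3.47 FPKM in 786-O. The part of these shifts in the results was not tested. In bulk RNA, fewer cells of a type and less RNA per cell cannot be told apart.

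The windows at the start sites of 4 of these genes are shown first, because NFKBIA, TNFAIP3, BIRC3 and NFKB1 moved clearly and their windows carry the DNA word that NF-kB dimers bind, the kappa B motif. RefSeq start-site windows (GRCh38.p14, 250 bases before to 50 bases after the start) matched 8 of the 10 genes, all but RELB and NFKBIE. The motif was searched on both strands by a consensus, and matches may overlap. Its letters were GGG, A or G, any 2 bases, 2 bases that are each C or T, and CC. The motif was present for 6 of the 8 genes, in 7 of their 11 windows, while 11.3% of all 35116 windows of this length hold it. The genes were chosen as NF-kB subunits and targets, so this share is a description and no independent support. The 250 bases before the start are printed 5′ to 3′ along each gene's strand, with motif matches in capitals. They lie at chr6:137867009-137867258 (plus strand) for TNFAIP3, chr14:35404750-35404999 (minus strand) for NFKBIA, chr11:102317234-102317483 (plus strand) for BIRC3 and chr4:102501109-102501358 (plus strand) for NFKB1.
TNFAIP3: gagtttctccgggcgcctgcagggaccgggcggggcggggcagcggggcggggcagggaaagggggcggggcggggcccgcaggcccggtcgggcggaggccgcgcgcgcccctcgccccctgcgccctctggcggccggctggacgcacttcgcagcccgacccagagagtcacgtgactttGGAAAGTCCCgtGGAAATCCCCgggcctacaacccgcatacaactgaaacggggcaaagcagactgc
NFKBIA: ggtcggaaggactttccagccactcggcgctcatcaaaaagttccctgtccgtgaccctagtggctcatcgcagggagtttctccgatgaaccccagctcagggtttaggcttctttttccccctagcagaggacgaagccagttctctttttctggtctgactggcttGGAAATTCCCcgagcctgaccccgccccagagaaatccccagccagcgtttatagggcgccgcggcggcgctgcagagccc
BIRC3: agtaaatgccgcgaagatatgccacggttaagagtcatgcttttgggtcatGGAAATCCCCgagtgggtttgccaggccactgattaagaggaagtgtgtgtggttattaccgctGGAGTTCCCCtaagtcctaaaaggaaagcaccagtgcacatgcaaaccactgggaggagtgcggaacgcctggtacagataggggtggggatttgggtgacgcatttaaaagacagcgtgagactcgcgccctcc
NFKB1: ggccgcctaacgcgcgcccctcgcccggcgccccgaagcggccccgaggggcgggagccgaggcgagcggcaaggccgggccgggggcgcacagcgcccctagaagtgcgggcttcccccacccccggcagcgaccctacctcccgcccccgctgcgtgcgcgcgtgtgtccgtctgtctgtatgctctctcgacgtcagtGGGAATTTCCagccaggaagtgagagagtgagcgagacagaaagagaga
TNFAIP3 has 2 matches, which begin 67 and 55 bases before the start. The match of NFKBIA begins 81 bases before its start and that of NFKB1 49 bases before. NFKB1 has another start window, which holds no match. BIRC3 has 2 matches farther out, at 199 and 135 bases. The NFKB1 and NFKBIA matches are the same word read from opposite strands, GGGAATTTCC along the NFKB1 strand and GGAAATTCCC along the NFKBIA strand. REL has the overlapping matches GGGAAATTCC and GGAAATTCCC, which begin 47 and 46 bases before the start, and NFKB2 has matches in the windows of 2 of its 3 starts. The windows of TNFAIP2 and ICAM1 hold no match of these letters. That of ICAM1 does hold TGGAAATTCC, which differs from the searched letters in its first base alone. The lack of a match therefore does not show that a kappa B site is absent. A match describes the letters only and is no measurement of binding. The 4 windows printed were picked for a change and a match, and a link between the 2 was not tested.

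Silencing of CBX7 went with a rise of the feedback inhibitors NFKBIA and TNFAIP3 in both lines, modest in 5637 (1.17 and 1.22 times the control mean) and larger in 786-O (1.76 and 2.39 times). NFKB1 and BIRC3 moved in opposite directions in the 2 lines. In 786-O, 6 of the 9 tested genes rose (RELB, NFKBIA, NFKBIE, TNFAIP3, BIRC3 and ICAM1), 2 fell (NFKB1 and TNFAIP2) and NFKB2 did not pass the test, while REL was too low to be tested. In 5637, 3 of 10 rose (NFKB1, NFKBIA and TNFAIP3), 5 fell (NFKB2, REL, NFKBIE, TNFAIP2 and BIRC3) and RELB and ICAM1 did not pass. When any 1 library of 5637 was left out, 2 to 3 of the 10 were called lower, with BIRC3 and REL among them each time. In 786-O TNFAIP2 lost its call without any 1 of the shCBX7 libraries or control library 3, which left 1 lower. NFKBIE lost its rise there without any 1 of the shCBX7 libraries or control library 2 or 3, which left 5 higher. Tests were run on log2(FPKM + 1), a scale that understates the change of low genes, with limma over all genes whose mean reached 0.5 FPKM, and a gene was called at an adjusted p under 0.05. Calls were common in these data. In 5637, 44.5% of all 12689 tested genes were called (24.4% higher and 20.2% lower), and in 786-O 51.0% of 13220 (24.7% higher and 26.2% lower). The arms of a line did not overlap for 8 of the 10 genes in 5637, where 56.4% of tested genes did not overlap, and for 8 of the 9 tested in 786-O, against 60.3%. The median change of the 9 genes in 786-O was 0.62 on the log2 scale, beside -0.01 over all tested genes. In 5637 the median of the 10 was -0.06, beside 0.01 over all tested genes. The sizes also differed, with a median absolute log2 change of 0.12 in 5637 (0.10 over all tested genes) and 0.62 in 786-O (0.24 over all tested genes).

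**Figure D1:**
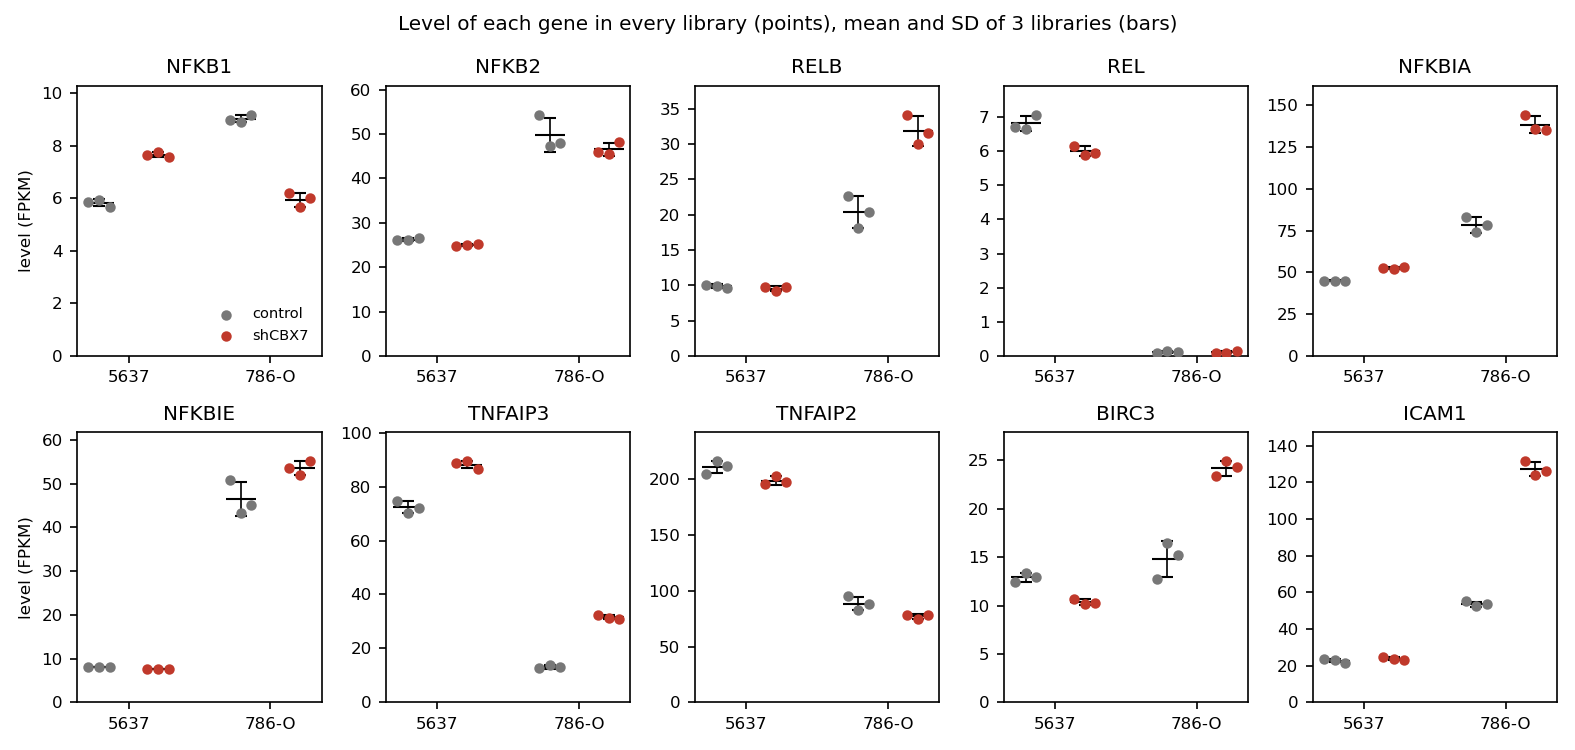
Level of the 10 genes in FPKM (vertical axis, linear from 0) in the libraries of 5637 and 786-O, control in grey and shCBX7 in red. Points are libraries, and the bars give the mean and SD of 3 libraries. NFKB1 lies higher after silencing in 5637 and lower in 786-O, BIRC3 the reverse, and ICAM1 moves from 52.3 to 55.1 FPKM up to 124 to 131 FPKM in 786-O.

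Among the subunits, NFKB1, which encodes the p105 precursor of p50, changed in opposite directions in the 2 lines. In 5637 the control libraries held 5.88, 5.94 and 5.68 FPKM of it and the shCBX7 libraries 7.65, 7.78 and 7.58 FPKM. Every shCBX7 library was above every control, a rise of 0.34 (SE 0.027, limma adjusted p = 1.48e-04). The control libraries of 786-O held 8.99, 8.92 and 9.18 FPKM, against 6.19, 5.66 and 5.999 FPKM after silencing. There the shCBX7 libraries were all lower, with 65.9% of the control mean left and a log2 change of -0.53 (SE 0.051, limma adjusted p = 1.25e-04). Between 810 and 1543 reads per library lie behind these values in 5637, and between 590 and 1023 in 786-O. NFKB1 lies on chromosome 4 from 102501329 to 102617302 on the plus strand (GRCh38, GENCODE release 29, here and below).

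RELB, the activating partner of p52 in the non-canonical branch, rose in 786-O and did not pass the test in 5637. In 786-O the control libraries had 22.7, 18.05 and 20.4 FPKM and the shCBX7 libraries 34.1, 30.0 and 31.5 FPKM. The arms did not overlap, at 1.56 times the control mean (log2 change 0.62, SE 0.087, limma adjusted p = 7.81e-04). In 5637 the values were 10.1, 9.95 and 9.60 FPKM against 9.69, 9.15 and 9.77 FPKM, so the arms overlapped (log2 change -0.05, SE 0.032, limma adjusted p = 0.278). RELB lies on chromosome 19 from 45001430 to 45038198 on the plus strand.

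NFKB2, the precursor of p52, was the most abundant of the 4 subunit genes in both lines and did not pass the test in 786-O. There it was 54.3, 47.3 and 48.0 FPKM in control and 45.9, 45.5 and 48.3 FPKM in shCBX7 libraries, with overlapping arms (log2 change -0.09, SE 0.062, limma adjusted p = 0.239). In 5637 it went from 26.0, 26.1 and 26.5 FPKM to 24.7, 25.1 and 25.3 FPKM and kept 95.4% of the control mean (log2 change -0.06, SE 0.019, limma adjusted p = 0.0302). That call was lost when any 1 of the 6 libraries of 5637 was left out (limma adjusted p up to 0.102). NFKB2 lies on chromosome 10 from 102394110 to 102402529 on the plus strand.

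REL, which encodes c-Rel, the subunit best known from lymphocytes, was high enough for a test in 5637 only. It fell there from 6.71, 6.66 and 7.06 FPKM in control to 6.16, 5.88 and 5.95 FPKM in shCBX7 libraries, with no overlap (log2 change -0.16, SE 0.031, limma adjusted p = 0.0060). In 786-O it stayed between 0.0864 and 0.158 FPKM in all 6 libraries, on 19 to 37 reads, where the exact permutation test (two-sided) returned p = 1. REL lies on chromosome 2 from 60881521 to 60931610 on the plus strand, and 5702 of its exon bases are shared with AC010733.2 on the same strand, which was listed at 0 in 786-O. The gene length of the 786-O table gave no whole reads for REL in 5637, so its levels in the 2 tables are not set side by side.

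RELA, the main activating subunit and not one of the 10 genes, gives the scale for the family. It fell in 5637 from 24.0 ± 0.45 to 21.5 ± 0.49 FPKM (SD, n = 3; limma adjusted p = 0.00277). Control 786-O cells held 20.7 ± 1.1 FPKM and silenced cells 19.8 ± 0.91 FPKM (SD, n = 3; limma adjusted p = 0.396). REL is part of the subunit sums, so shares and sums, here and below, are compared between the arms of a line only. Taken as shares of the summed FPKM of the 5 subunits, NFKB1 made up 8.01% ± 0.20 of control and 10.99% ± 0.25 of shCBX7 messages in 5637 (SD, n = 3). In 786-O its share was 9.05% ± 0.62 in control and 5.70% ± 0.07 after silencing, while RELB went from 20.3% ± 0.98 to 30.5% ± 1.2 (SD, n = 3). The ratio of RELB to NFKB1 was 2.02 to 2.52 in the control libraries of 786-O and 5.25 to 5.51 in the shCBX7 libraries. In 5637 the same ratio was 1.68 to 1.72 in control and 1.18 to 1.29 after silencing. The summed FPKM of the subunits overlapped between the arms of 786-O (94.0 to 108 FPKM in control, 100 to 107 FPKM in shCBX7 libraries). In 5637 the sum was 72.4 to 73.3 FPKM in control and 68.9 to 70.2 FPKM after silencing. For each share or ratio whose arms did not overlap, the exact permutation test (two-sided) returned p = 0.1, which is the lowest that 3 libraries against 3 can reach, and 0.138 after adjustment over the 18 quantities tested.

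**Figure D2:**
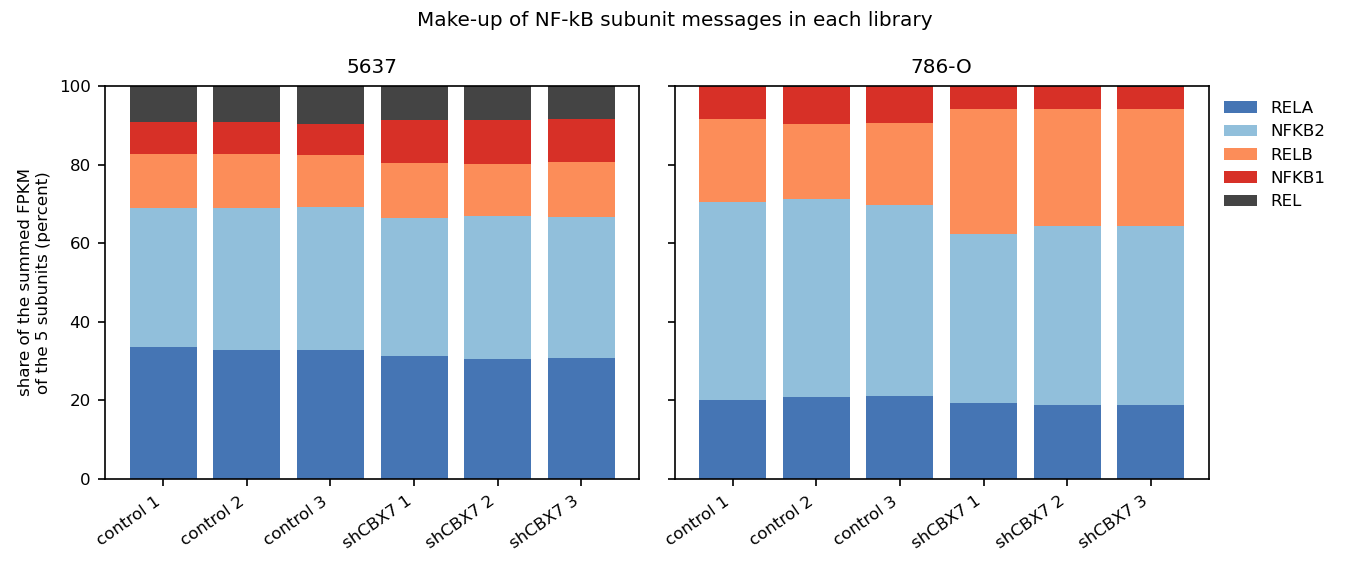
Share of each subunit in the summed FPKM of RELA, NFKB2, RELB, NFKB1 and REL (vertical axis, percent) for each library of 5637 (left) and 786-O (right). Each bar is 1 library, and shares are compared between the arms of a line only. In 786-O the RELB segment widens from 19.2% to 21.0% in control to 29.8% to 31.9% in shCBX7 libraries, while the NFKB1 segment narrows from 8.34% to 9.49% down to 5.65% to 5.79%.

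The feedback inhibitor NFKBIA, which encodes IkB-alpha and is among the first genes that NF-kB switches on, rose in both lines. In 5637 it was 45.0, 45.0 and 44.5 FPKM in control and 52.7, 51.8 and 53.0 FPKM in shCBX7 libraries. The arms of this small rise did not overlap (log2 change 0.22, SE 0.018, limma adjusted p = 1.74e-04). The spread within an arm was 0.60% and 1.1% of the mean, on 2350 to 4091 reads per library. Such a spread could be technical and does not show how far separate cultures would differ. In 786-O the values were 83.3, 73.9 and 78.2 FPKM against 144, 136 and 135 FPKM (log2 change 0.81, SE 0.056, limma adjusted p = 2.69e-05). Per summed subunit message, NFKBIA went from 0.616 ± 0.005 to 0.753 ± 0.002 in 5637 and from 0.784 ± 0.010 to 1.33 ± 0.04 in 786-O (SD, n = 3). NFKBIA is a minus-strand gene of chromosome 14, from 35401511 to 35404749.

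TNFAIP3, which encodes A20, a ubiquitin-editing enzyme that ends signalling upstream of IKK, rose in both lines, and in 786-O it and ICAM1 changed most among the 10 genes. There it went from 12.7, 13.9 and 13.0 FPKM in control to 32.4, 31.1 and 31.03 FPKM in shCBX7 libraries (log2 change 1.20, SE 0.050, limma adjusted p = 3.33e-06). The change exceeded in size that of 98.0% of tested genes in 786-O. In 5637 it was already high, at 74.7, 70.3 and 72.2 FPKM in control, and reached 88.7, 89.3 and 86.5 FPKM after silencing (log2 change 0.28, SE 0.027, limma adjusted p = 3.39e-04). The tables were normalized separately, so the gap between lines is a description only. TNFAIP3 lies on chromosome 6 from 137867188 to 137883312 on the plus strand and shares 95 exon bases with AL357060.1 on the opposite strand, which had means of 0.113 and 0.293 FPKM in the control and shCBX7 arms of 786-O.

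NFKBIE, which encodes IkB-epsilon, moved little and its calls did not hold. In 786-O it went from 50.9, 43.4 and 45.1 FPKM to 53.6, 51.9 and 55.1 FPKM, with control library 1 close to the shCBX7 libraries (log2 change 0.20, SE 0.065, limma adjusted p = 0.0334). That call was lost when any shCBX7 library or control library 2 or 3 of 786-O was left out (limma adjusted p = 0.0587 to 0.106). In 5637 it was 8.09, 8.05 and 8.04 FPKM in control and 7.54, 7.71 and 7.60 FPKM after silencing (log2 change -0.07, SE 0.022, limma adjusted p = 0.0336), and leaving out any 1 library of 5637 lost the call (limma adjusted p = 0.0542 to 0.0913). NFKBIE is a minus-strand gene of chromosome 6, from 44258166 to 44265788.

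ICAM1, an adhesion receptor for leukocyte integrins and a classic NF-kB target, rose in 786-O and did not pass in 5637. Its change in 786-O was close to that of TNFAIP3, and which of them was larger depended on the setting. In 786-O it was 55.1, 52.3 and 53.5 FPKM in control and 131, 124 and 126 FPKM in shCBX7 libraries. These arms were far apart, at 2.37 times the control mean (log2 change 1.23, SE 0.044, limma adjusted p = 1.74e-06). In 5637 it was 23.6, 23.1 and 21.7 FPKM against 24.5, 23.7 and 23.0 FPKM, with overlapping arms (log2 change 0.06, SE 0.037, limma adjusted p = 0.245). ICAM1 lies on chromosome 19 from 10270835 to 10286615 on the plus strand and shares 815 exon bases with the antisense gene AC011511.5, which stayed near 0 in 786-O (0.0251 and 0.0222 FPKM).

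BIRC3, which encodes cIAP2, a ubiquitin ligase that keeps cells alive after TNF, moved in opposite directions in the 2 lines. In 786-O it rose from 12.7, 16.5 and 15.2 FPKM in control to 23.4, 24.9 and 24.3 FPKM in shCBX7 libraries (log2 change 0.68, SE 0.087, limma adjusted p = 5.23e-04). In 5637 it fell from 12.5, 13.3 and 13.0 FPKM to 10.7, 10.1 and 10.3 FPKM, with 80.2% of the control mean left (log2 change -0.29, SE 0.032, limma adjusted p = 5.48e-04). The arms did not overlap in either line. BIRC3 lies on chromosome 11 from 102317450 to 102339403 on the plus strand.

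TNFAIP2, a TNF-induced gene whose protein shapes membrane protrusions, was slightly lower after silencing in both lines. In 5637, where it ranked above 99.2% of tested genes in level, it went from 205, 216 and 212 FPKM to 195, 203 and 198 FPKM (log2 change -0.09, SE 0.027, limma adjusted p = 0.0343). In 786-O it went from 94.98, 82.8 and 88.2 FPKM to 78.7, 74.6 and 78.3 FPKM (log2 change -0.20, SE 0.058, limma adjusted p = 0.0254). The arms did not overlap, but the gaps were small. In 5637 the call was lost without shCBX7 library 1 or 3 or control library 2 or 3 (limma adjusted p = 0.0912 to 0.0982), and in 786-O without any shCBX7 library or control library 3 (limma adjusted p = 0.0511 to 0.0924). TNFAIP2 lies on chromosome 14 from 103123442 to 103137439 on the plus strand.

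**Figure D3:**
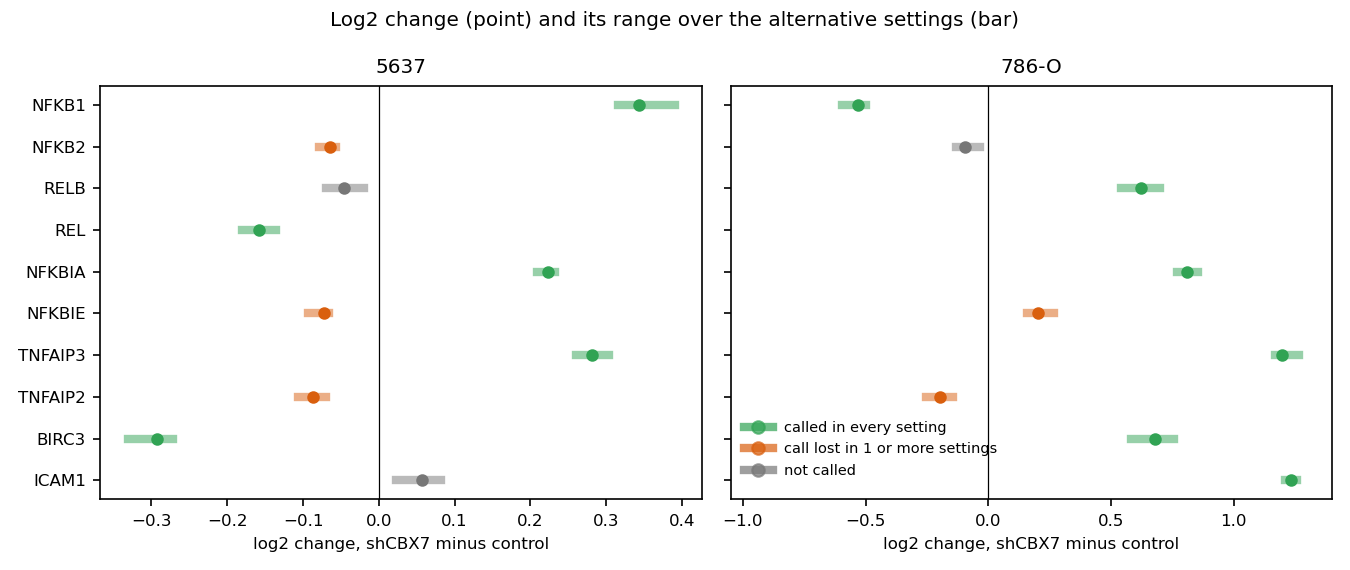
Log2 change of the 10 genes (point) and its lowest to highest value over the alternative settings (bar) in 5637 (left) and 786-O (right), shCBX7 minus control. Genes in green kept their call in each setting run and genes in orange lost it in 1 or more. NFKB1, NFKBIA, TNFAIP3 and BIRC3 are green in both lines, REL in 5637, and RELB and ICAM1 in 786-O.

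The difference between lines was tested directly, as the change in 786-O minus the change in 5637, in a limma fit over all 12 libraries. Each term is a difference within 1 table, because the tables were normalized separately. It passed for 8 of the 10 genes, while 53.3% of all 12777 tested genes passed. Of the 8, REL was near 0 in 786-O and reached the filter through 5637 only. Its call was lost in 11 of 18 alternatives. ICAM1 (difference 1.17, SE 0.056, limma adjusted p = 2.11e-08), BIRC3 (0.97, SE 0.099, limma adjusted p = 8.59e-06) and TNFAIP3 (0.91, SE 0.054, limma adjusted p = 1.13e-07) led on the side of 786-O. NFKB1 was the 1 gene with a difference on the side of 5637 (-0.87, SE 0.050, limma adjusted p = 8.96e-08). NFKBIA rose in both lines and rose more in 786-O (0.59, SE 0.059, limma adjusted p = 7.21e-06). For NFKB2 and TNFAIP2 the difference did not pass (-0.03, SE 0.067, and -0.11, SE 0.065; limma adjusted p = 0.727 and 0.179). That of TNFAIP2 depended on the setting and passed in 3 of 19 alternatives (limma adjusted p down to 0.0228). CBX7 itself differed, with the deeper fall in 786-O (-0.22, limma adjusted p = 0.0268). Called in both lines with opposite sign were NFKB1, NFKBIE and BIRC3, beside 12.2% of the 10354 genes tested in both lines, and with the same sign NFKBIA, TNFAIP3 and TNFAIP2, beside 14.7%. Of these, NFKBIE lost its call in 8 of 13 alternatives in 5637 and 7 of 13 in 786-O, and TNFAIP2 in 6 and 5.

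**Figure D4:**
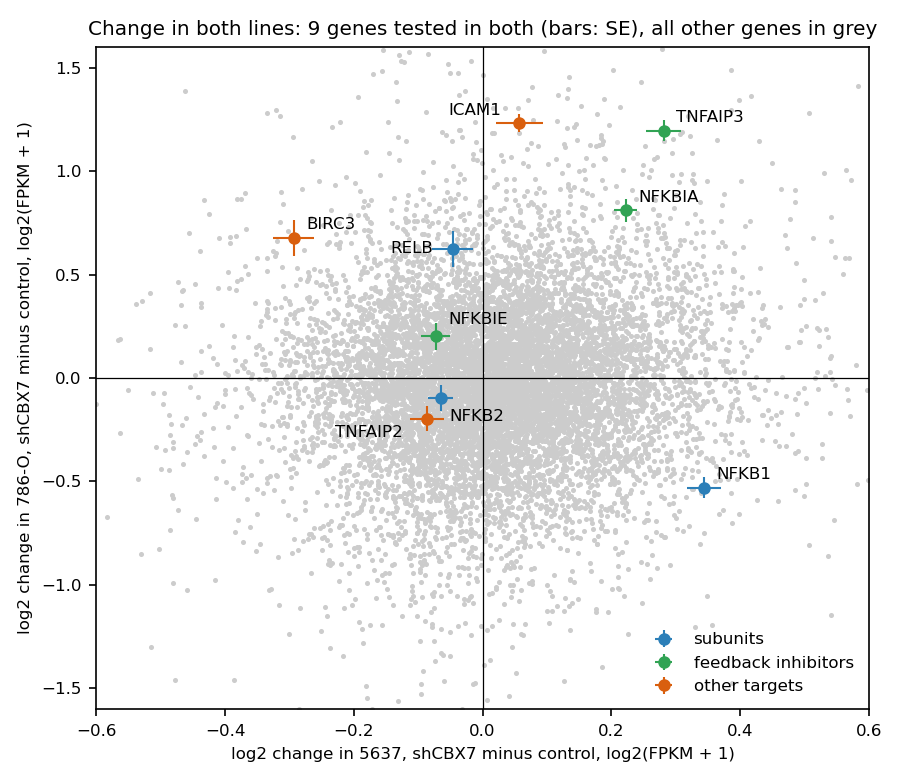
Log2 change after silencing in 5637 (horizontal axis) and 786-O (vertical axis), each shCBX7 minus control on log2(FPKM + 1), for the 9 genes tested in both lines, with SE bars. Grey points are all other genes tested in both lines, of which 121 genes lie outside the axes. NFKB1 sits at 0.34 and -0.53, BIRC3 at -0.29 and 0.68, and NFKBIA and TNFAIP3 in the quadrant of a rise in both.

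Other genes of the pathway were grouped by role. In 786-O most of the tested receptors, adaptors and further targets were called higher. Differences between the lines were not tested for these lists. The lists were chosen with earlier results of these data known. Their counts beside all tested genes, here and below, are a description and no independent support. Of 28 further NF-kB targets, 22 of the 26 tested rose in 786-O and 2 fell, with a median log2 change of 0.65, where 24.7% of all tested genes rose, 26.2% fell and the median was -0.01. Of the 22, PTGS2 and TNIP3 reached the filter through their shCBX7 libraries only, so a fall from their control level could not have been tested. The monocyte chemokine CCL2 rose from 10.7 ± 0.65 to 81.2 ± 3.4 FPKM, CXCL2 from 10.4 ± 0.54 to 32.7 ± 2.3 FPKM and CCL20 from 20.5 ± 1.2 to 46.9 ± 2.4 FPKM (SD, n = 3). In 5637, 10 of 19 tested targets rose and 3 fell, with a median of 0.16, where 24.4% of all tested genes rose, 20.2% fell and the median was 0.01. These counts depended on the setting. With all genes kept whatever their level, 7 were called higher and 2 lower. When 1 library of 5637 was left out, 7 to 10 were called higher and 2 to 3 lower. CXCL1 rose from 25.5 ± 0.67 to 51.2 ± 1.1 FPKM, CXCL2 from 4.81 ± 0.48 to 12.2 ± 0.26 FPKM and the growth factor CSF2 from 11.4 ± 0.28 to 20.6 ± 0.85 FPKM (SD, n = 3). The survival gene BCL2L1 and TNFAIP8 fell in both lines, and EFNA1 fell in 5637 and rose in 786-O. For the rises given here in FPKM, the limma adjusted p-values ran from 2.25e-07 for CCL2 in 786-O to 3.33e-05 for CXCL2 in 5637.

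Of 12 ligands that start NF-kB signalling, 6 reached the filter in 786-O, and IL1B and TNFSF13B did so through their shCBX7 libraries only, so the number of calls is not read. TNF rose from 4.95 ± 0.55 to 15.1 ± 0.24 FPKM (limma adjusted p = 6.40e-06) and IL1B from 0.452 ± 0.030 to 2.72 ± 0.51 FPKM (limma adjusted p = 4.56e-05), the latter on as few as 23 reads. TNFSF13B went from 0.291 ± 0.13 to 0.712 ± 0.10 FPKM (SD, n = 3; limma adjusted p = 0.0150), on as few as 8 reads, and without any 1 of the shCBX7 libraries it was under the filter. In 5637, TNF was listed at 0 in all 6 libraries. IL1B rose there from 220 ± 2.9 to 251 ± 6.6 FPKM (limma adjusted p = 0.00115), while IL18 fell from 12.5 ± 0.55 to 9.72 ± 0.50 FPKM (SD, n = 3; limma adjusted p = 0.00110). The other called ligand of 5637, TNFSF12, was lower (log2 change -0.19, limma adjusted p = 0.0362), and leaving out shCBX7 library 3 or any control library of 5637 lost that call.

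In 786-O 8 of 12 tested receptors rose and 0 fell (24.7% and 26.2% of all tested genes), with 1 lower at an unadjusted p under 0.05 (limma), 0 with voom and 1 without shCBX7 library 1, and the median change was 0.33. CD40, a TNF receptor family member that feeds the non-canonical branch, rose from 35.4 ± 2.0 to 54.5 ± 1.6 FPKM, the lymphotoxin receptor LTBR from 27.6 ± 1.6 to 35.3 ± 0.54 FPKM and IL1RAP, the shared chain of interleukin 1 receptors, from 1.38 ± 0.21 to 2.399 ± 0.06 FPKM (SD, n = 3; limma adjusted p = 7.77e-05, 0.00119 and 0.00137). In 5637, 3 of 12 rose and 2 fell, with a median of -0.01, which is close to the 24.4% and 20.2% of all tested genes. TLR4, the receptor for bacterial lipopolysaccharide, rose from 2.83 ± 0.14 to 4.67 ± 0.10 FPKM and TNFRSF12A, the TWEAK receptor, from 33.5 ± 0.19 to 37.8 ± 1.5 FPKM, while IL1RAP fell from 4.90 ± 0.12 to 3.95 ± 0.22 FPKM (SD, n = 3; limma adjusted p = 9.09e-05, 0.00373 and 0.00241).

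Adaptors and ubiquitin enzymes, which link receptors to IKK, rose in 12 of 17 tested genes in 786-O and fell in 2, with a median of 0.33, against 24.7% and 26.2% of all tested genes. TRADD, the adaptor of TNF receptor 1, went from 13.2 ± 0.95 to 21.7 ± 0.77 FPKM, TANK from 6.96 ± 0.35 to 11.7 ± 0.80 FPKM and TRAF1 from 6.22 ± 0.61 to 10.4 ± 0.49 FPKM (SD, n = 3; limma adjusted p = 8.95e-05, 1.16e-04 and 2.67e-04). In 5637, 5 of 17 rose and 3 fell, close to the 24.4% and 20.2% of all tested genes. TRAF3 rose from 11.4 ± 0.41 to 13.6 ± 0.12 FPKM and TAX1BP1, a partner of A20, from 9.18 ± 0.15 to 11.1 ± 0.31 FPKM, while OTULIN, which removes linear ubiquitin chains, fell from 15.3 ± 0.32 to 12.2 ± 0.44 FPKM (SD, n = 3; limma adjusted p = 8.40e-04, 5.54e-04 and 3.95e-04).

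The IKK complex and its upstream kinases were mixed in both lines. In 786-O 6 of 16 rose and 2 fell, with a median of -0.001, against 24.7% and 26.2% of all tested genes, and without control library 1 the number that fell was 4. IRAK2 rose from 10.7 ± 0.19 to 19.9 ± 0.35 FPKM, IKBKE from 9.19 ± 0.80 to 18.7 ± 0.26 FPKM and IRAK1 from 64.2 ± 4.2 to 102 ± 5.0 FPKM (SD, n = 3; limma adjusted p = 7.86e-06, 2.30e-05 and 1.06e-04). The genes that fell were CHUK, which encodes IKK-alpha, from 3.51 ± 0.52 to 2.14 ± 0.15 FPKM, and MAP3K14, which encodes NIK, the kinase that starts the non-canonical branch, from 13.8 ± 1.1 to 9.43 ± 0.63 FPKM (SD, n = 3; limma adjusted p = 0.00256 and 9.38e-04). In 5637, 3 of 16 rose and 4 fell, close to the 24.4% and 20.2% of all tested genes. IRAK1, a kinase downstream of interleukin 1 and Toll-like receptors, rose there from 58.3 ± 0.45 to 71.2 ± 0.67 FPKM and IKBKE from 3.08 ± 0.36 to 4.38 ± 0.18 FPKM, while TAB2 fell from 31.9 ± 0.30 to 28.9 ± 0.12 FPKM (SD, n = 3; limma adjusted p = 7.81e-05, 0.00267 and 0.00108). Of the 5 remaining Rel and IkB genes, NFKBIB, which encodes IkB-beta, rose in 786-O from 17.6 ± 0.84 to 37.2 ± 2.8 FPKM and NFKBIZ fell from 18.2 ± 0.82 to 14.4 ± 0.79 FPKM (SD, n = 3; limma adjusted p = 1.88e-05 and 0.00274). In 5637 RELA was the called gene of these 5, with 0 higher, also 0 at an unadjusted p under 0.05 (limma) and 0 with voom. A further gene was called lower there without shCBX7 library 1, and 1 was called higher without control library 2.

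**Figure D5:**
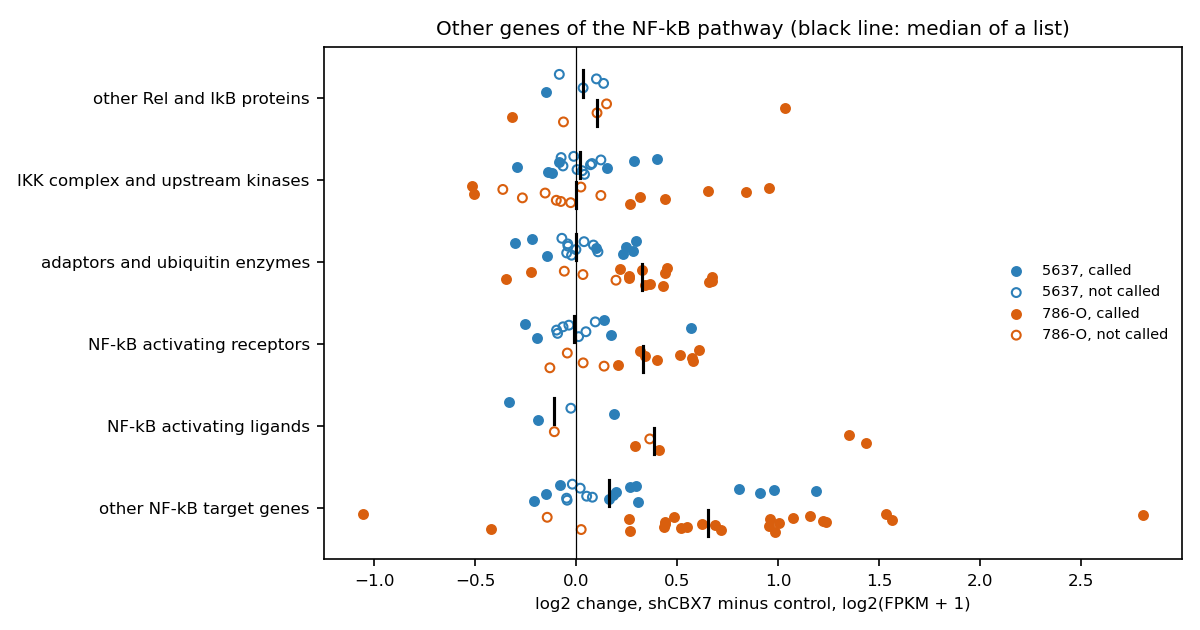
Log2 change (horizontal axis, shCBX7 minus control on log2(FPKM + 1)) of other NF-kB pathway genes by list, 5637 in blue and 786-O in orange. Each point is 1 tested gene, filled where called, and the black lines are medians. In 786-O the medians of receptors, adaptors and further targets lie at 0.33 to 0.65, and in 5637 that of further targets at 0.16.

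The genes whose pattern over the 12 libraries was most like that of NFKBIA were ECE1, TGFB1I1, BCAR3, TCF3 and FOXP4. Likeness was the Euclidean distance between log2(FPKM + 1) values after subtraction of the control mean of each line, over 9214 genes of at least 1 FPKM in both lines other than the 10. The distance was 0.122 for ECE1, the endothelin-converting enzyme, and 0.157 for FOXP4, against a median of 1.55 over all ranked genes. ECE1 went from 28.3 ± 0.18 to 32.9 ± 0.30 FPKM in 5637 and from 36.6 ± 1.3 to 63.3 ± 1.3 FPKM in 786-O (SD, n = 3). The pattern shared by these genes is a small rise in 5637 beside a larger one in 786-O, since the measure was built on those changes.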

How the data were processed

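Gene expression was measured by RNA-seq in 12 libraries, 3 per group. The authors deposited FPKM values (fragments per gene, scaled for gene length and library size), 1 table per line, per the file headers. Libraries were directional (NEBNext Ultra), per the labels' protocols. Aligner, counter and strand setting: not given in the sources used here. A mouse build, mm10, stands in the submitters' processing notes for these human samples. Gene positions, lengths and strands come from the 786-O table, and those of the 10 genes match GENCODE release 29.

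Values were turned into log2(FPKM + 1). Within a line, limma 3.58.1 in R 4.3.3 (moderated statistics, variance trend on) was run on genes averaging 0.5 FPKM or more, with Benjamini-Hochberg adjustment over all genes tested. An interaction term over all 12 libraries gave the line difference. Single quantities were compared with an exact two-sided permutation test. Reads were recovered where FPKM came out as whole reads within 0.01, for 93.7% of listed genes in 5637 and 100% in 786-O, and served for depth and for an alternative fit. Count tests were not the main test, since FPKM is a scaled unit. SOD2 has 2 identifiers in the 786-O table and was left out there.

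Named were the 10 genes, CBX7, RELA, up to 3 called genes with the smallest p per pathway list and line, and the 5 genes most like NFKBIA. BCL2L1, TNFAIP8, EFNA1, CHUK, MAP3K14, PTGS2, TNIP3, LAPTM5, CORO1A and CSF1R were named after their values were seen. The genes and lists were chosen with earlier results of these data known. Tried in turn were voom on recovered reads, a replicate block, quantile normalization, a pseudocount of 0.1, median centring, all genes kept whatever their level, a constant prior variance, and the omission of each library. Each fit was first tested on simulated data.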

Additional observations from a re-analysis of the deposited data

Results flagged for a closer look

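The effect of silencing differed between the lines for 8 of the 10 genes and for CBX7, by the interaction term of limma over all 12 libraries. Of all 12777 tested genes, 53.3% passed this test. Given as the log2 change in 786-O minus that in 5637, the values were 1.17 for ICAM1, 0.97 for BIRC3, 0.91 for TNFAIP3, 0.67 for RELB, 0.59 for NFKBIA and 0.28 for NFKBIE. On the other side they were -0.87 for NFKB1 and -0.22 for CBX7. The value of REL, 0.15 (limma adjusted p = 0.0441), is its fall in 5637 set against a level near 0 in 786-O, and the call was lost in 11 of 18 alternatives. CBX7 fell further in 786-O than in 5637, and its part in the other differences was not tested.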

How the results depend on the processing

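The directions and calls of NFKB1, NFKBIA, TNFAIP3 and BIRC3 in both lines, of RELB and ICAM1 in 786-O and of REL in 5637 held in each alternative run. The number of genes lower in 5637, 5 of 10, was 3 without the mean-variance trend, 3 with the replicate block and 3 with voom, and 2 to 3 when 1 library was left out. The number lower in 786-O, 2 of 9, was 1 without the filter on low values and 1 to 2 when 1 library was left out. In 5637 the fit without the trend lost the calls of NFKB2 and TNFAIP2, and the block lost those of NFKB2 and NFKBIE. Voom lost that of NFKBIE there and has no value for REL. Over all 13 alternatives in 5637, TNFAIP2 lost its call in 6, and NFKB2 and NFKBIE in 8 each. NFKBIE also lost its rise in 786-O in 7 of 13 alternatives. The CBX7 change in 5637 ran from -0.20 to -0.14 when 1 library was left out. The line difference of NFKB2, which was not called, turned to 0.022 with quantile normalization and 0.0049 with median centring, and ran from -0.066 to 0.032 when 1 library was left out, with the sign turned without control library 1 of 786-O. The cause was not tested. The replicate numbers pair the samples weakly if at all (correlations of same-numbered libraries from -0.03 to 0.02 in 5637 and from 0.06 to 0.08 in 786-O, where each library correlated best with its own number). With the replicate block 4942 genes were called in 5637 and 6723 in 786-O, in place of 5651 and 6736, and 6752 for the line difference in place of 6808, where 7 of the 10 genes passed in place of 8. Among the 10 genes the block changed the calls of NFKB2 and NFKBIE in 5637 and of the line difference of REL. In 786-O REL, at 19 to 37 reads, was under the filter on low values.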
